A study of Homo sapiens with 4 samples.

Results

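Interferon-stimulated genes are described here in 2 human gastric cancer cell lines, AGS and MKN1, after knockdown of the homeobox transcription factor HOXB9. The members are 50 named genes, antiviral effectors, chemokines, regulators and antigen presentation genes, and exclude the double-stranded RNA sensors. They were found by symbol in the deposited table, where all 50 have a row among 57815 rows. Each line was transfected with Lipofectamine 2000 and either a scrambled control small interfering RNA (siScramble, labelled WT) or one against HOXB9 (siHOXB9, labelled HOXB9 knockdown), and 1 library of poly-A-selected RNA was made per line and siRNA. There are thus 4 libraries, no replicate within a line, and the only repeat of the knockdown is the other line. No untransfected cells were analysed here, and the labels give no sequence of either siRNA, no time after transfection and no second siRNA against HOXB9.

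Interferons are secreted cytokines that bind cell surface receptors and activate the kinases JAK1 and TYK2. These phosphorylate STAT proteins such as STAT2, which acts with IRF9 in a complex called ISGF3 that binds the interferon response element in promoters of target genes. The products block virus entry, translation and replication, edit or tag proteins, and raise antigen presentation. Epithelial cells can express many of these genes at a low level without added interferon, and transfected nucleic acid is a known trigger of the pathway, which the scrambled siRNA is meant to control for.

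The promoter sequence of the members was looked at first. It was not used to find them, but interferon acts on its target genes through the interferon response element. A high share of that element is thus part of what such a list is, and no independent support. The core of the interferon response element was taken as GAAA, any 2 bases and GAAA again, and was searched on both strands of RefSeq promoters (GRCh38.p14, 250 bases before to 50 bases after a gene's start). Of the 50 members 42 matched an entry by symbol, and 29 of these (69.0%) held the core at one or more listed starts. Across the 27305 genes with an entry the share was 4.38%, and across the 35116 single windows it was 3.57%. Matches can overlap each other, and a match is a description of letters, not of binding. IFIT1, IFIT3, IFI44L, DDX60, ISG15, IFI27 and BST2 hold further matches besides the site printed below. The sites below are those of members that the later results turn on, 30 bases each on the strand of the gene, with the core in capitals (a core that reads TTTC at both ends lies on the opposite strand).
IFIT1: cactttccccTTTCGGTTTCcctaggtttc
IFIT3: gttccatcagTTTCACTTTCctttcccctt
CXCL10: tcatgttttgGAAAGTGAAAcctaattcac
IFI44L: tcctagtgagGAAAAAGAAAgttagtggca
RSAD2: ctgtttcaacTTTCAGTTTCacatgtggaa
DDX60: gaggagaaagGAAACCGAAActcccgccgg
ISG15: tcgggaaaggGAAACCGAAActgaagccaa
IFI27: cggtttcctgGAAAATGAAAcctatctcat
BST2: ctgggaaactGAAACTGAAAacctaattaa

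The IFIT1 site is chr10:89392510-89392539 on the forward strand, with its core starting 103 bases before the gene's start. The IFIT3 site, chr10:89332468-89332497 on the forward strand, lies 51 bases before the downstream of its listed starts. The CXCL10 site, chr4:76023699-76023728 on the reverse strand, lies 221 bases before the start. In IFI44L the same 30 letters occur at chr1:78620274-78620303 and chr1:78620365-78620394, 164 and 73 bases before the start. The RSAD2 site is chr2:6877622-6877651 on the forward strand, 145 bases before a listed start. The DDX60 site is chr4:168318786-168318815 on the reverse strand, 53 bases before the start. The ISG15 site is chr1:1013380-1013409 and the IFI27 site chr14:94110631-94110660, both on the forward strand. The BST2 site is chr19:17405735-17405764 on the reverse strand, 124 bases before the start.

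Values are FPKM, fragments counted per gene relative to its length and to the library's depth, as computed by the authors. Depth estimated from low values lay between 10610000 fragments for MKN1 siHOXB9 and 12970000 for AGS siScramble. HOXB9 was at 16.4 FPKM with siScramble and 4.44 with siHOXB9 in AGS, and at 1.14 and 0.218 in the MKN1 libraries. The target was thus lower with siHOXB9 in each line (ratios of 0.270 and 0.191), but in MKN1 it was low with siScramble too. On the log2(FPKM + 1) scale its change was -1.68 in AGS and -0.81 in MKN1, the latter short of the 2-fold rule used below. Of 5 epithelial markers KRT8 and KRT18 were at 654 FPKM or more in all 4 libraries, while EPCAM was at 328 and 359 FPKM in AGS and at 2.14 and 2.70 in MKN1, and CDH1 (E-cadherin) was at most 3.28. Of 5 gastric markers TFF1 was at 26.2 and 14.8 FPKM in AGS and the others (TFF2, MUC5AC, MUC6 and GKN1) at 0.962 or less, and the gastric list summed to 2.27 FPKM or less in MKN1. The 6 leukocyte markers summed to 0.168 to 0.739 FPKM, with CD3E, LILRA4 and CLEC4C listed at 0 in every library. Of the members 42 and 43 reached 1 FPKM in AGS siScramble and siHOXB9, and 35 and 36 in the MKN1 libraries. In total 32 members reached 1 FPKM in all 4 libraries, and GBP2, SAMD9L, TRIM22 and XAF1 in none.

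**Figure D1:**
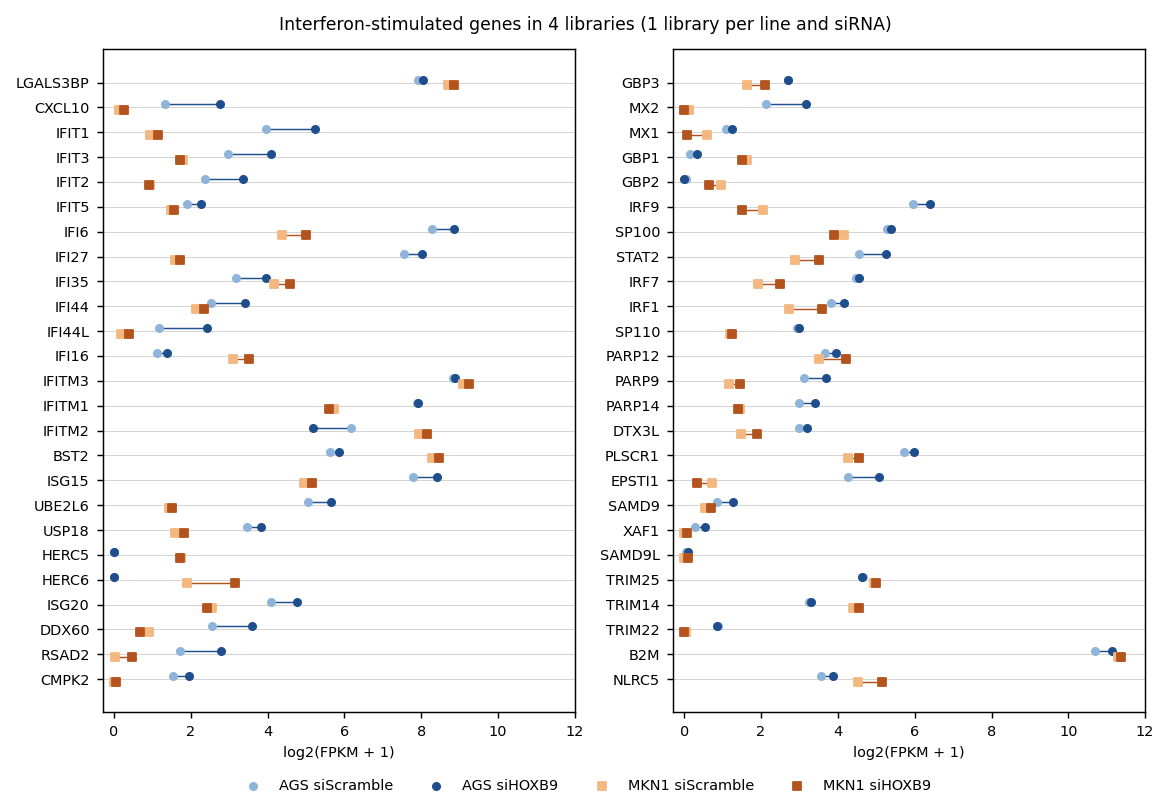
Level of each of the 50 members in the 4 libraries, as log2(FPKM + 1), grouped by role; lines join the siScramble and siHOXB9 libraries of a line. B2M lies furthest right in every library (1668 to 2666 FPKM), the IFIT genes, IFI6, IFI27 and ISG15 lie further right in AGS than in MKN1, and HERC5 and HERC6 are at 0 in AGS.

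The first comparison asked how the members differed between siHOXB9 and siScramble in AGS. CXCL10, IFIT1, IFI44L, IFIT3, RSAD2, MX2 and DDX60 were higher with siHOXB9 by a size rule of 2-fold on the log2(FPKM + 1) scale, and no member was lower by that rule. Most other members lay on the same side by less. Over the 50 members 43 had a change above 0, 5 below, and HERC5 and HERC6 were listed at 0 in both AGS libraries. Over the genes that reached 1 FPKM in one or more of the 4 libraries, 42.3% lay above 0 in AGS. The median change of the 50 members was 0.34, beside -0.04 over those genes. Of the 43 members that reached 1 FPKM in AGS 40 lay above 0 and 3 below (42 and 1 after rescaling, centring or quantile normalization), where 43.0% of all such genes lay above 0 and 57.0% below. The 7 members called higher are out of 43 that reached 1 FPKM in either AGS library, where 1.68% of all genes that reached it were called higher and 2.21% lower. Each of the 7 was at 1 FPKM or more with siScramble too, so none passed that level only through siHOXB9. SAMD9, at 0.813 and 1.41 FPKM (0.41), was the member that reached 1 FPKM in AGS through siHOXB9 alone. With 1 library per group these are differences between libraries, without a test and without a replicate error. The members were also chosen with earlier results of these data known. Their shares beside those of all genes, here and below, are thus descriptions and no independent support.

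CXCL10 encodes a chemokine that draws activated T cells. In AGS it was at 1.51 FPKM with siScramble and 5.80 with siHOXB9, a change of 1.44. CXCL10 has 1 annotated transcript, and its values correspond to an estimated 18 and 66 fragments. The ratio of 3.84 then has an exact 95% counting interval of 2.24 to 6.84, which covers counting error of 2 libraries only. The gene, on the reverse strand of chromosome 4 (76021117 to 76023497 in GRCh38, GENCODE 29), was the member with the largest change in AGS. LGALS3BP, a secreted glycoprotein, was at 242 and 262 FPKM, a change of 0.11.

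The IFIT proteins bind viral RNA and hinder its translation, and their genes lie together on chromosome 10 between 89283694 and 89421001. All 4 had a change above 0 in AGS, with a median of 1.06. IFIT1 was at 14.6 FPKM with siScramble and 36.8 with siHOXB9 (log2 change 1.28). IFIT3 was at 6.86 and 16.1 FPKM (1.12). IFIT2, at 4.12 and 9.23 FPKM, lay just under the size rule as deposited and passed it at 1.03 to 1.14 after rescaling, centring, quantile normalization or with a pseudocount of 0.1. IFIT5, the gene of the cluster that lies furthest downstream, had the smallest change of the 4, with 2.76 and 3.78 FPKM (0.35).

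The IFI genes are named for induction by interferon. IFI44L, which neighbours IFI44 on chromosome 1, was at 1.24 FPKM with siScramble and 4.39 with siHOXB9 (1.27), and IFI44 at 4.73 and 9.58 (0.88). IFI35 was at 8.06 and 14.4 FPKM (0.77). IFI6 and IFI27, which encode small mitochondrial or membrane proteins, were among the most abundant members in AGS. IFI6 was at 310 and 457 FPKM (0.56) and IFI27 at 187 and 258 FPKM (0.46). IFI16, a nuclear DNA-binding protein, was low in AGS at 1.17 and 1.58 FPKM.

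Enzymes that act on nucleotides and RNA had a median change of 0.86 in AGS. RSAD2 (viperin), which makes a chain-terminating nucleotide, was at 2.29 FPKM with siScramble and 5.88 with siHOXB9 (1.06). DDX60, a helicase-like protein, was at 4.90 and 11.1 FPKM (1.04). ISG20, an exonuclease, was at 16 and 26.4 FPKM (0.68). CMPK2, a mitochondrial nucleotide kinase whose exons overlap those of RSAD2 on the opposite strand, was at 1.88 and 2.89 FPKM (0.43).

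The GTPases were mixed. MX2, which blocks nuclear import of some viruses, was at 3.35 FPKM with siScramble and 7.97 with siHOXB9 in AGS (1.04). MX1, its paralog next to it on chromosome 21, was at 1.12 and 1.35 FPKM (0.15). GBP3 was at 5.52 and 5.48 FPKM, while GBP1 and GBP2 were at 0.259 FPKM or less in AGS. In the ISG15 system, ISG15, a ubiquitin-like modifier, was at 221 and 336 FPKM (0.60), and UBE2L6, its conjugating enzyme, at 31.9 and 49.2 FPKM (0.61). USP18, which removes ISG15 and damps receptor signalling, was at 10.1 and 13.1 FPKM (0.34). Of the 50-base words of USP18, 23.4% are also in other genes, USP41 and AP000550.4 among them. USP41 was listed at 88.5 FPKM in AGS siScramble and at 0 in the other libraries. Summing the USP18 and USP41 rows gave 98.7 and 13.1 FPKM and turned the AGS change of USP18 to -2.82. Whether the USP41 value holds reads of USP18 was not tested.

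The membrane proteins IFITM1, IFITM2 and IFITM3 restrict virus entry at the cell surface and in endosomes. IFITM1 was at 234 and 241 FPKM and IFITM3 at 452 and 471 FPKM in AGS siScramble and siHOXB9. IFITM2 was at 70.8 and 35.4 FPKM, the most negative change of the members that reached 1 FPKM in AGS (-0.98). Of the 50-base words of IFITM2, 34.1% are also in transcripts of other genes, chiefly IFITM1 and IFITM3, and how reads were divided among the 3 rows was not tested. Their sum was 757 FPKM with siScramble and 747 with siHOXB9, a change of -0.02, in a calculation added after the data were seen. BST2 (tetherin), which holds budding virus at the membrane, was at 48.3 and 56.9 FPKM (0.23).

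Of the members that regulate transcription, STAT2 had the largest change in AGS, with 22.5 FPKM in siScramble and 37.1 in siHOXB9 (0.70). IRF9, the DNA-binding part of ISGF3, was at 60.9 and 83.0 FPKM (0.44). IRF7, which amplifies type I interferon production, was at 21.0 and 22.6 FPKM (0.10). IRF1, an activator of interferon gamma targets, was at 13.2 and 17 FPKM (0.34). The nuclear body genes SP100 and SP110 had changes of 0.10 and 0.05. Among the ADP-ribosylation genes, PARP9 and DTX3L, which form a complex and share a promoter region on chromosome 3, had changes of 0.56 and 0.21, and PARP14 and PARP12 of 0.43 and 0.29. EPSTI1 was at 18.2 and 32.8 FPKM (0.82) and PLSCR1, a phospholipid scramblase, at 51.4 and 62.1 FPKM (0.27). TRIM14 and TRIM25, members of the TRIM protein family, had changes of 0.05 and -0.02. B2M, which pairs with MHC class I heavy chains, was at 1668 and 2255 FPKM (0.43), and NLRC5, the activator of MHC class I genes, at 10.7 and 13.6 FPKM (0.31).

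The share of all FPKM in AGS that fell on members was 0.465% with siScramble and 0.642% with siHOXB9. Mitochondrially encoded transcripts also differed between these libraries, at 0.988% and 1.79% (0.686% and 0.470% in MKN1), and the part of that difference in the member changes was not tested. The 5 fibroblast markers summed to 16.1 FPKM in AGS siScramble and 30.7 in siHOXB9, nearly all COL1A1 (15.8 and 29.3 FPKM), with COL1A2 and DCN listed at 0 in both, and their part was not tested either. The leukocyte markers were at or near 0 in both AGS libraries. In bulk RNA, more cells expressing a gene and more RNA per cell cannot be told apart.

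**Figure D2:**
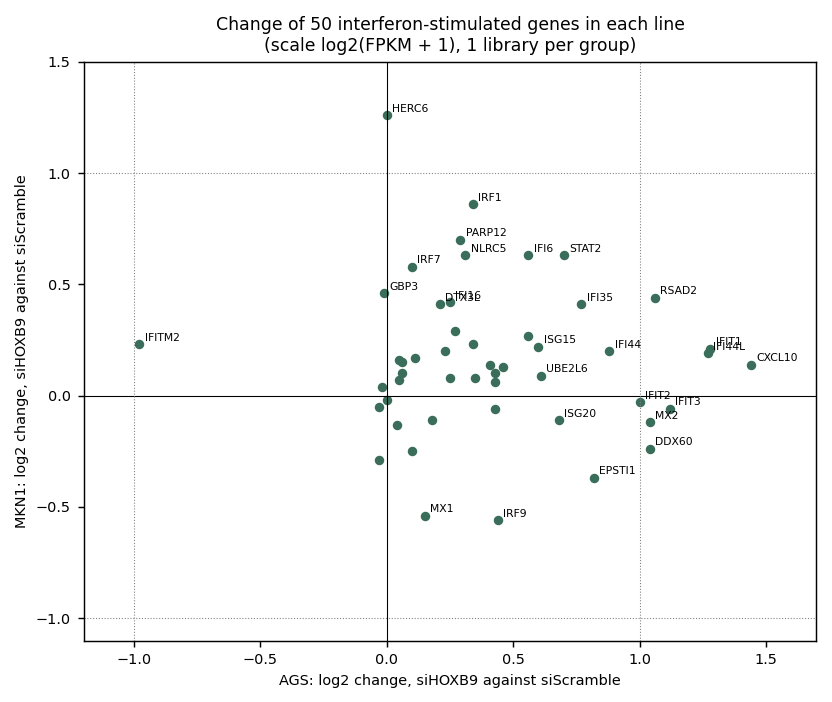
Log2 change with siHOXB9 in AGS (horizontal axis) and MKN1 (vertical axis) for the 50 members, on the log2(FPKM + 1) scale; dotted lines mark the size rule of 1. The 7 members past the dotted line on the right have MKN1 changes between -0.24 and 0.44, and HERC6, past the upper line, is at 0 in AGS.

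The same comparison in MKN1 gave smaller changes. HERC6 alone was higher with siHOXB9 by the size rule, and no member was lower. Of the 50 members 35 had a change above 0 and 15 below, where 60.8% of the genes that reached 1 FPKM in one or more of the 4 libraries were above 0. The median over the 50 members was 0.14, beside 0.08 over those genes. Of 36 members that reached 1 FPKM in either MKN1 library 28 were above 0, and 24 after centring on the median gene, whose change was 0.095 in this line. Over all genes that reached 1 FPKM in MKN1 63.1% were above 0 and 36.9% below, 2.10% were called higher and 1.94% lower, so the 1 member called is near the background share.

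HERC6 belongs to a family of ubiquitin ligases in which HERC5 is the main ligase for ISG15 in human cells. HERC6 was at 2.71 FPKM in MKN1 siScramble and 7.89 in MKN1 siHOXB9 (1.26). HERC5, its neighbour on chromosome 4, was at 2.35 and 2.31 FPKM (-0.02). In AGS both were listed at 0 in both libraries, while HERC3, the next gene of the family in the same region, was at 38.9 and 33.9 FPKM. HERC3 was named after its values were seen.

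Several regulators had changes on either side of 0 in MKN1. IRF1 was at 5.68 FPKM in siScramble and 11.1 in siHOXB9 (0.86), the largest change after HERC6 of the members that reached 1 FPKM in MKN1. STAT2 was at 6.37 and 10.4 FPKM (0.63), close to its AGS change of 0.70. IRF7 was at 2.80 and 4.66 FPKM (0.58). IRF9 was at 3.18 and 1.84 FPKM (-0.56), so the 2 members that are parts of ISGF3 lay on opposite sides in MKN1. Of the 50-base words of IRF9, 43.6% are also in another gene, mainly AL136295.5, which shares exon sequence with it on the same strand. NLRC5 was at 21.9 and 34.4 FPKM (0.63), PARP12 at 10.4 and 17.6 FPKM (0.70), and IFI6 at 19.6 and 30.8 FPKM (0.63).

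The members called in AGS were low in MKN1. CXCL10 was at 0.0952 FPKM in siScramble and 0.206 in siHOXB9, an estimated 0.995 and 2 fragments. IFI44L was at 0.138 and 0.299 FPKM, MX2 at 0.0891 and listed at 0, and DDX60 at 0.883 and 0.599. MX1, not called in AGS, was at 0.521 and 0.0440 FPKM in MKN1, an estimated 19.1 and 1.5 fragments, and its change of -0.54 is held down by the pseudocount. RSAD2 was at 0.0266 and 0.391 FPKM, an estimated 0.991 and 13.5 fragments if its longest transcript was the one counted. At these levels the pseudocount of 1 FPKM holds the changes of CXCL10, IFI44L, MX2, DDX60 and RSAD2 near 0, from -0.24 to 0.44. IFIT1, at 0.912 and 1.22 FPKM (0.21), and IFIT3, at 2.45 and 2.31 FPKM (-0.06), were measurable in MKN1 and did not reach the size rule. The IFIT family as a whole had a median of 0.02 in MKN1 over its 4 genes, and the 3 that reached 1 FPKM had a median of 0.08, which turned to -0.02 after centring.

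**Figure D3:**
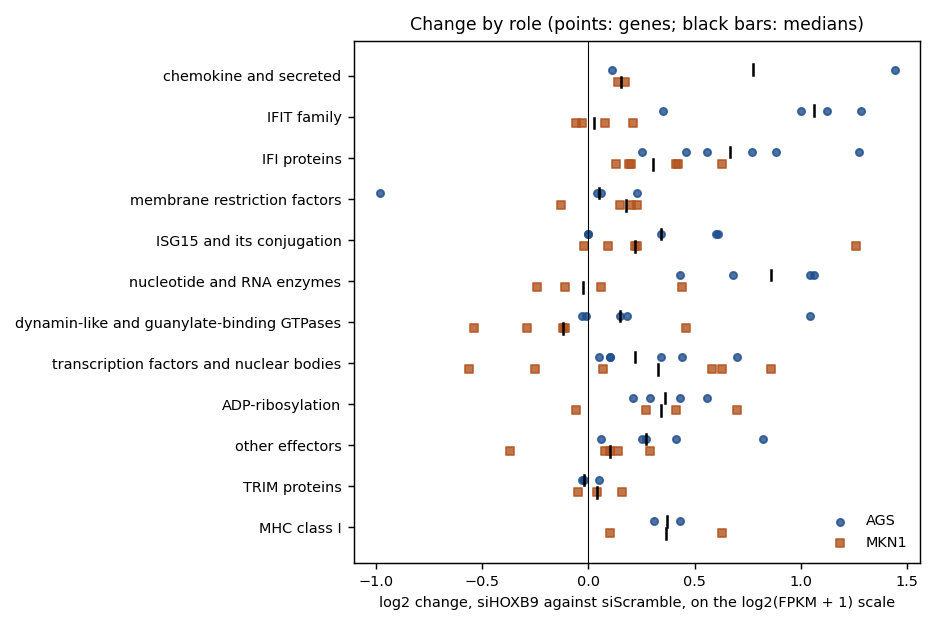
Log2 change with siHOXB9 for each member by role, AGS as circles and MKN1 as squares, with black bars at the medians. The IFIT family has a median of 1.06 in AGS and 0.02 in MKN1, while the ADP-ribosylation genes have 0.36 and 0.34.

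The changes in the lines were then set side by side and fitted together. The lines share no library. Of the 50 members 31 had a change above 0 in both lines, where 27.8% of the same wider set of genes did, and 15 lay on opposite sides, where 44.4% of that set did. Of the 33 members that reached 1 FPKM in both lines 9 lay on opposite sides, where 46.9% of all such genes did. No member was called in both lines. The counts on each side of 0 are as deposited, where the median gene changed by -0.059 in AGS and 0.095 in MKN1. Taken alone, 43 of the 50 members lay above 0 in AGS and 35 in MKN1. Many would thus lie above 0 in both without any link between the lines. The AGS changes of the 50 members had a Pearson's r of -0.08 and a Spearman's rho of 0.01 with their MKN1 changes, as a description of genes that are not independent. The change was larger in AGS for 33 of the 50, where it was for 36.4% of the wider set.

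A limma fit over both lines tested 45 members among 13758 genes. GBP2, SAMD9, SAMD9L, TRIM22 and XAF1 did not reach 1 FPKM in 2 libraries and were not tested. No member passed an adjusted p of 0.05, higher or lower, nor did any under the alternatives tried. Over all genes 0% were called higher and 0.00727% lower, a single gene. HOXB9, the target itself, did not pass either, at -1.25 (SE 0.268, adjusted p 0.355 by limma). The lack of calls thus does not show that the members were unchanged. At an unadjusted p under 0.05 there were 10 members, all higher with siHOXB9, where 3.45% of all genes tested were higher at that level and 7.12% reached it in either direction. The fit has 1 residual degree of freedom, and limma draws each gene's variance in part from the other genes.

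The smallest p among members was that of IFI6, with an estimate of 0.59 (SE 0.164) and an adjusted p of 0.538 by limma. STAT2 followed at 0.66 (SE 0.190, adjusted p 0.563 by limma). RSAD2, IFI35, IRF1, IFIT1, IFI44L, CXCL10, NLRC5 and PARP12 were the others under the unadjusted level, with estimates from 0.47 to 0.79. With a pseudocount of 0.1 FPKM the estimates of RSAD2, CXCL10 and IFI44L, all low in MKN1, were 1.64, 1.26 and 1.25. IFI6, STAT2, IFI35, IRF1 and NLRC5 had changes of 0.31 or more in both lines. So did RSAD2 (1.06 in AGS and 0.44 in MKN1), which was under 1 FPKM in MKN1. PARP12 changed by 0.29 in AGS and 0.70 in MKN1. IFIT1, IFI44L and CXCL10 had changes of 1.27 to 1.44 in AGS and of 0.14 to 0.21 in MKN1. Whether any member responded differently in the lines could not be tested, since that term leaves no residual degree of freedom.

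The lines themselves differed far more than the siRNAs within a line. Of 45 members tested 26 were higher in AGS and 8 in MKN1 by limma (adjusted p under 0.05 and a log2 difference of at least 1). The filter asked for 1 FPKM in 2 libraries, and each line has 2. Members that reached 1 FPKM in 1 line alone, named below, thus entered the fit through the line where they are high. Of all genes tested 20.9% were higher in AGS and 16.2% in MKN1 by the same rule. The libraries of a line differ in siRNA and are the only 2 of that line. Each SE rests on 1 residual degree of freedom and on a variance that limma borrows from all genes tested. The p-values thus do not measure the spread between repeated cultures of a line. Without the MKN1 siScramble library, 14 members were higher in AGS and 6 in MKN1, and without the MKN1 siHOXB9 library 15 and 5.

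IFI27 had the largest difference. It was at 187 and 258 FPKM in the AGS libraries and at 2.02 and 2.31 FPKM in the MKN1 libraries, MKN1 minus AGS being -6.13 (SE 0.189, adjusted p 9.49e-07 by limma). IRF9 was at 60.9 and 83.0 FPKM in AGS and at 3.18 and 1.84 FPKM in MKN1, a difference of -4.39 (SE 0.267). Of its 50-base words 43.6% are also in other genes, and how its reads were divided was not tested. EPSTI1 was at 18.2 and 32.8 FPKM in AGS and at 0.640 and 0.265 FPKM in MKN1 (-4.14). IFI6 (-3.88), UBE2L6 (-3.87), IFIT1 (-3.56), ISG15 (-3.04) and MX2 (-2.58) were the next on that side. UBE2L6 was at 31.9 and 49.2 FPKM in AGS and at 1.7 and 1.86 FPKM in MKN1, and ISG15 at 221 and 336 FPKM against 29.7 and 34.7 FPKM. These genes were named for the size of this difference. With a pseudocount of 0.1 FPKM that of MX2, which is under 0.1 FPKM in MKN1, was -5.26.

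On the other side, BST2 was at 48.3 and 56.9 FPKM in AGS and at 307 and 352 FPKM in MKN1 (2.63, SE 0.163, adjusted p 1.44e-05 by limma). IFITM2 was at 70.8 and 35.4 FPKM in AGS and at 243 and 285 FPKM in MKN1 (2.37), with 34.1% of its 50-base words also in other genes. The sum of IFITM1, IFITM2 and IFITM3 was 757 and 747 FPKM in AGS and 839 and 936 FPKM in MKN1. IFI16 was at 1.17 and 1.58 FPKM in AGS and at 7.52 and 10.4 FPKM in MKN1 (2.06). HERC6 (2.52) and HERC5 (1.74) were listed at 0 in AGS, so their differences depend on the pseudocount and are no bound. An exact 0 in these files can be a failed estimate, which was not tested for either gene. GBP1 (1.33), TRIM14 (1.19) and NLRC5 (1.12) complete the 8. B2M, IFITM3, TRIM25, PARP12 and IFIT5 did not pass the adjusted threshold between the lines, and their estimates lay between -0.56 and 0.41.

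The remaining regulators lay higher in AGS. STAT2 differed by -1.71 (SE 0.190) and IRF7 by -2.30 (SE 0.220), and IRF1 by -0.83, which passed the adjusted p of 0.05 but not the size rule. In all 9 members, CMPK2, CXCL10, DDX60, EPSTI1, IFI44L, IFIT2, MX1, MX2 and RSAD2, were at 1 FPKM or more in both AGS libraries and under 1 FPKM in both MKN1 libraries. GBP1, HERC5 and HERC6 showed the reverse. Of the genes that reached 1 FPKM in one or more libraries 7.41% had the first pattern and 7.50% the second. Members with either pattern passed the limma filter only through the line where they are high, which fixed the direction of their difference. In MKN1 the members held 0.547% and 0.573% of all FPKM with siScramble and siHOXB9, of which B2M alone was 2487 and 2666 FPKM. Without B2M the members summed to 2198 and 2737 FPKM in AGS and to 1804 and 2065 FPKM in MKN1.

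**Figure D4:**
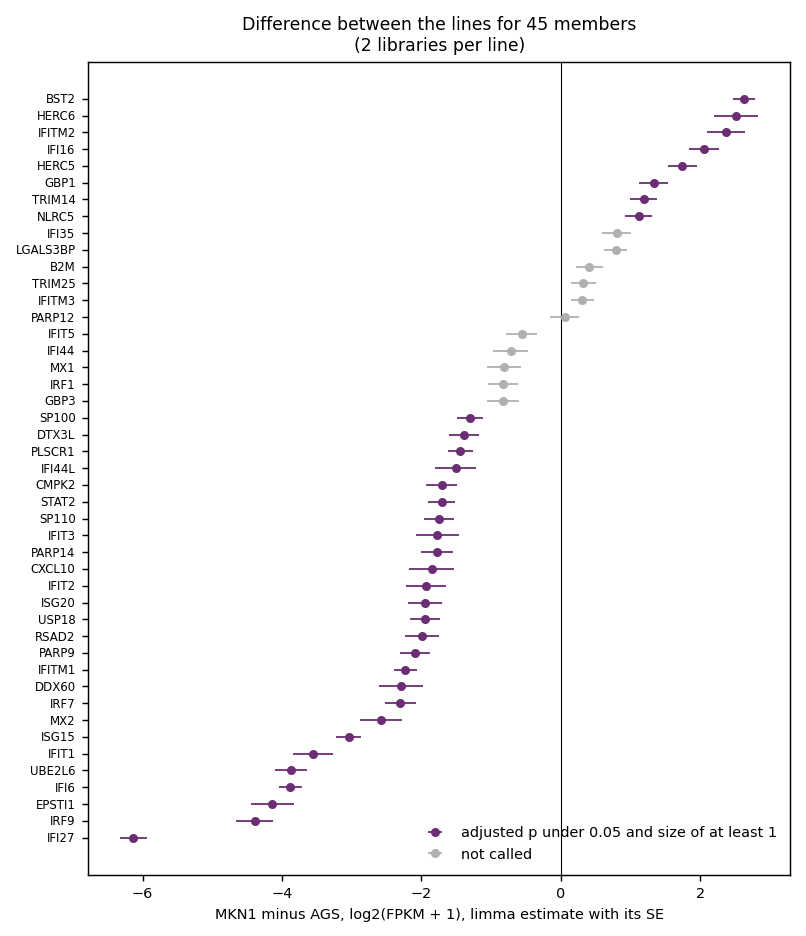
Difference between MKN1 and AGS for the 45 tested members as the limma estimate on the log2(FPKM + 1) scale, with its SE; purple marks an adjusted p under 0.05 with a size of at least 1. The 26 members called higher in AGS lie left of -1, led by IFI27 at -6.13, and the 8 called higher in MKN1 lie right of 1, led by BST2 at 2.63. Members that reached 1 FPKM in 1 line alone entered the fit only through that line.

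Other genes of the pathway, from ligands and receptors to feedback inhibitors and antigen presentation, were counted from lists. Those lists were chosen with earlier results of these data known. Of 10 interferon genes, all were listed at 0 in both MKN1 libraries. In AGS IFNL1, a type III interferon, was at 5.64 FPKM with siScramble and 10.8 with siHOXB9 (0.83), and IFNL2 and IFNL3 at 0.481 and 1.51 FPKM and at 0.964 and 1.35 FPKM. IFNB1, a type I interferon, was at 0.264 and 0.276 FPKM in AGS, and the other 6, IFNA1, IFNA2, IFNE, IFNK, IFNW1 and IFNG, were listed at 0. IFNLR1, the specific chain of the type III receptor, was at 0.316 and 0.459 FPKM in AGS and at 1.03 and 1.75 FPKM in MKN1. None of the 10 was called in a line, and IFNL1, the single ligand tested between the lines, was higher in AGS. IFNL1 passed the limma filter only through the AGS libraries, which fixed that direction.

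Among 9 receptor and kinase genes none was called higher in either line, and 1 was lower, IFNGR1 in MKN1. IFNGR1, a chain of the interferon gamma receptor, was in MKN1 at 14 FPKM with siScramble and 4.81 with siHOXB9 (-1.37), and at 29.3 and 22.8 FPKM in AGS. JAK1 and TYK2 had changes of 0.40 and 0.41 in AGS and 0.43 and 0.12 in MKN1. Of the 8 transducers and partners and the 7 feedback inhibitors none was called in a line. SOCS1, an inhibitor of JAK kinases, was at 0.809 and 2.17 FPKM in AGS (0.81) and at 0.451 and 0.292 FPKM in MKN1.

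The double-stranded RNA sensors, a related set, had a median change of 0.44 in AGS over 12 genes and 0.12 in MKN1, with none called in either line. OASL, at 26.9 and 53.8 FPKM in AGS, came closest (0.97). Among 4 DNA sensing genes TMEM173 (STING) was at 1.03 and 0.253 FPKM in AGS and 33.6 and 35.3 FPKM in MKN1, a difference between the lines of 4.47 (SE 0.252, adjusted p 9.19e-06 by limma). TREX1, a DNA exonuclease, was also higher in MKN1 (3.50, SE 0.217). Of the antigen presentation list, which had 14 rows, none was called in either line. TAP1 and PSMB8 were listed at 0 in every library, and an exact 0 in these files can be a failed estimate.

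The promoter letters shown at the outset were set beside the changes. The 29 members with the interferon response element core had a median change of 0.43 in AGS and the 13 with an entry but no core 0.25. Over those that reached 1 FPKM in AGS the medians were 0.43 and 0.39. Of the 7 members called higher in AGS, 6 held the core (CXCL10, IFIT1, IFIT3, IFI44L, RSAD2 and DDX60), and MX2 had no entry. None of the 13 without the core was called in AGS, but only 10 of them reached 1 FPKM there and could be called. Of those with the core 27 reached it, so most members open to a call held the core. In MKN1 the medians were 0.15 and 0.09, and over those that reached 1 FPKM there they were 0.17 with the core and 0.25 without, the other way round. HERC6, the member called there, was without the core in its window. The core was also in members with small AGS changes, such as IFITM3 (0.06), TRIM14 (0.05) and BST2 (0.23), so its presence did not separate the members by size.

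**Figure D5:**
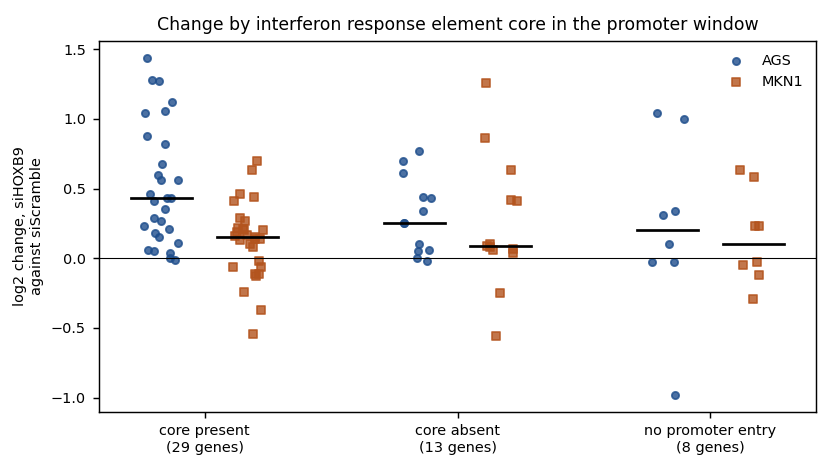
Log2 change with siHOXB9 for members with the interferon response element core in a promoter window, without it, and without a promoter entry, AGS as circles and MKN1 as squares, with black bars at the medians. In AGS the medians over all points are 0.43 with the core and 0.25 without (0.43 and 0.39 over members that reached 1 FPKM), and the 2 groups of points overlap.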

How the data were processed

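The 4 libraries were analysed, 1 for each of AGS and MKN1 with siScramble or siHOXB9. The authors deposited FPKM values per gene symbol, and the builds GRCh38 and hg38 are named per the submitters' processing notes. Aligner, counter and annotation: not given in the sources used here. Per the labels' protocols, poly-A RNA was fragmented and primed at random with a kit for which no strand step is described, so overlapping genes on opposite strands may share reads. Depth was estimated from FPKM steps of genes with 1 transcript, after shortening lengths by 260 bases, where 58.7% to 60.8% of low values lay within 0.05 of a whole number. Such fragment numbers are estimates.

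Changes were log2((siHOXB9 FPKM + 1)/(siScramble FPKM + 1)), called at a size of 1 or more among genes with 1 FPKM in either library of the line. limma 3.58.1 (R 4.3.3) modelled log2(FPKM + 1) on line and siRNA, with a variance trend, for genes with at least 1 FPKM in 2 libraries, with Benjamini-Hochberg adjustment over all 13758 genes. It was tested on simulated data. Values are given for members called in a line, for the 10 largest differences between lines, and for STAT2, IRF7 and IRF9; other members, and pathway genes not called in a line or between lines, were chosen for naming after their values were seen. Positions and shared 50-base words came from GENCODE 29, promoters from RefSeq (GRCh38.p14). Alternatives covered the pseudocount, filters, scaling, size rule, variance options, model terms, left-out libraries and shared reads. The members and lists were chosen with earlier results of these data known. Some results are not reported here.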

Additional observations from a re-analysis of the deposited data

Results flagged for a closer look

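Among the 33 members that reached 1 FPKM in both lines, 9 had changes on opposite sides of 0 in AGS and MKN1, 1 library per group in each, where 46.9% of all genes at that level did. The difference between the lines was not tested for any of them. IRF9 (0.44 in AGS, -0.56 in MKN1) and IFITM2 (-0.98 and 0.23) had the widest spread with IFIT3 (1.12 and -0.06). ISG20 (0.68 and -0.11), PARP14 (0.43 and -0.06), GBP3 (-0.01 and 0.46), SP100 (0.10 and -0.25) and IFITM1 (0.04 and -0.13) followed. TRIM25 (-0.02 and 0.04) was near 0 in both lines. The signs of GBP3 and TRIM25 in AGS, and of TRIM25 in MKN1, turned under rescaling, centring or quantile normalization.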

How the results depend on the processing

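The 7 members called higher in AGS became 6 to 9 under other pseudocounts, filters and scalings, and the 1 in MKN1 stayed 1. At a 1.5-fold rule there were 15 higher and 1 lower in AGS and 6 higher in MKN1. With USP18 and USP41 summed, 1 member was called lower in AGS. The AGS median of 0.43 over 43 measured members was 0.42 to 0.50 over the same members under other scalings and pseudocounts, 0.35 over 48 members with no filter, 0.43 over 37 with a filter of 5 FPKM and 0.51 over the 26 that share no exon. That of MKN1, 0.20 over 36, was 0.13 after rescaling, 0.10 after centring and 0.13 after quantile normalization. No alternative, the fit without the line as a block included, gave a call for siHOXB9 over both lines. Between the lines, 8 members higher in MKN1 and 26 in AGS became 4 and 12 with no filter on low values and 5 and 19 with a filter of 5 FPKM in 2 libraries, where 32 members were tested. Leaving out 1 library, without a term for siRNA, gave 5 to 6 higher in MKN1 and 14 to 26 in AGS, the lone library of a line being assumed to vary like the others. With a pseudocount of 0.1 FPKM, differences of members under 1 FPKM in a library grew, such as that of MX2 between the lines, from -2.58 to -5.26.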
